A study of Mus musculus with 14 samples.

Results

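GABA-A receptor subunit genes were followed across the anterior cingulate cortex of 2 mouse strains, before and after observational fear conditioning. The genes were the 7 listed subunit symbols Gabra2, Gabra3, Gabra4, Gabra5, Gabrb1, Gabrb2 and Gabrd, matched to their Ensembl identifiers in the count tables. All 7 were found among the 53465 genes of the tables, and all 7 passed the expression filter in every comparison.

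GABA-A receptors are chloride channels that open when GABA binds, and in adult cortical neurons their current is mostly inhibitory. Each channel is assembled from several subunits around a central pore, most often alpha and beta subunits together with a gamma or a delta subunit. The alpha subunit influences where the channel sits and which drugs act on it, GABA binds between alpha and beta, and delta replaces gamma in channels outside the synapse that carry a steady, tonic current.

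The groups were AKR/J mice after observational fear conditioning (AKR OFL, 3 libraries), C57BL/6NJ mice after the same conditioning (B6N OFL, 3 libraries), naive AKR/J mice (AKR naive, 4 libraries) and naive C57BL/6NJ mice (B6N naive, 4 libraries). In observational fear conditioning a mouse watches another mouse receive shocks. No group carried a transgene or a drug according to the labels, which give neither age nor sex. They do not state that each library is its own animal, so a p-value here covers the variation among libraries of a group, and that variation may be technical.

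Each library gave 13487311 to 25780227 counts. The OFL libraries held 13487311 to 14526253 counts and the naive libraries 19073921 to 25780227. The OFL libraries and the naive libraries came in separate count tables and differed in many RNA classes, so the condition and the library set cannot be told apart in any OFL minus naive value. Markers of cortical excitatory neurons were present in all groups, as the labelled tissue would have them, with a summed level of 2175 to 2425 CPM (counts scaled to a common library size) in AKR OFL, 2121 to 2397 CPM in B6N OFL, 4580 to 4745 CPM in AKR naive and 4598 to 5123 CPM in B6N naive for the 6 genes of the list, none of them at 0.

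The 7 genes lie on 5 chromosomes, and most of them sit beside other subunit genes (build GRCm38). Gabra2 (ENSMUSG00000000560, chr5:70957597-71095849, minus strand), Gabra4 (ENSMUSG00000029211, chr5:71569749-71658308, minus strand) and Gabrb1 (ENSMUSG00000029212, chr5:71658113-72149037, plus strand) share a cluster on chromosome 5. Gabra4 and Gabrb1 lie head to head: their starts are 0.195 kb apart, their annotated 5′ ends overlap, and 46 exonic bases are annotated on both strands. Gabra5 (ENSMUSG00000055078, chr7:57407672-57510059, minus strand) neighbours Gabrg3 on chromosome 7, with starts 122.9 kb apart. Gabrb2 (ENSMUSG00000007653, chr11:42419757-42629028, plus strand) neighbours Gabra6 on chromosome 11, with starts 98.69 kb apart. Gabra3 (ENSMUSG00000031343, chrX:72432681-72656848, minus strand) is on the X chromosome. Gabrd (ENSMUSG00000029054, chr4:155384980-155398112, minus strand) is the shortest of the 7, with 13.1 kb against 88.6 to 491 kb for the others.

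RefSeq start windows of 250 bases on GRCm38.p6 were read for the members that its promoter table holds, which were 6 of the 7, with 10 windows in all. Gabrd was not among them. The series title concerns ARNT2, a bHLH-PAS transcription factor that binds DNA with partners such as NPAS4, so the windows were searched on both strands for the core ACGTG, which bHLH-PAS dimers of ARNT proteins bind, and for TCGTG, a core bound by NPAS4 with ARNT partners. The cyclic AMP response element TGACGTCA and the EGR motif GCGTGGGCG were also searched, and neither contains either core. The head-to-head pair is shown first because its 2 genes differed between the strains in opposite directions in naive mice, then Gabrb2 because it had the largest difference between OFL and naive libraries, then Gabra2, an alpha gene of the same cluster as the pair. Each sequence runs 5′ to 3′ on the strand of its gene, and capitals mark a core (CACGT is ACGTG read on the other strand).
Gabra4 (chr5:71658309-71658558, minus strand): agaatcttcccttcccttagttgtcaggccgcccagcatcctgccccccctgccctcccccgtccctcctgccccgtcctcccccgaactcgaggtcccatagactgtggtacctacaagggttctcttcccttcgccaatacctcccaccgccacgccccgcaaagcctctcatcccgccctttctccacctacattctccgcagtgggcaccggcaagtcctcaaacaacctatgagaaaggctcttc
Gabrb1 (chr5:71657671-71657920, plus strand): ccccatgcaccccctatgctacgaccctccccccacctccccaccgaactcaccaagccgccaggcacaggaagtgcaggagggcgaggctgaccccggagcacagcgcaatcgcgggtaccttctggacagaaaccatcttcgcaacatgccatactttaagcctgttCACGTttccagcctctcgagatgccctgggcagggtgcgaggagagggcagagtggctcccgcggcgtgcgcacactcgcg
Gabrb2 window 3 (chr11:42420951-42421200, plus strand): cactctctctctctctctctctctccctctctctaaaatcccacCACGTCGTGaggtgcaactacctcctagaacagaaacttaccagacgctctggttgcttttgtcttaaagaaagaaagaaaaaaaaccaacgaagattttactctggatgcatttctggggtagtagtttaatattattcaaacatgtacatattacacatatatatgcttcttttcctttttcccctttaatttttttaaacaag
Gabra2 (chr5:71095850-71096099, minus strand): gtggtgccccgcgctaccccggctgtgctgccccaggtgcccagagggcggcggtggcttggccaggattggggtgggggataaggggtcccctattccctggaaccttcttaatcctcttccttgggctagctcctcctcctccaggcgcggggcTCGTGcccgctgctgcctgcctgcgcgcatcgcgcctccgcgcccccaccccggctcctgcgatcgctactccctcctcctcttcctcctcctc

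The Gabra4 window lies inside the Gabrb1 gene and the printed Gabrb1 window, window 1 of 2, inside the Gabra4 gene. The Gabra4 window held no core, and the printed Gabrb1 window held 1 ACGTG at 81 bases before the start. Gabrb1 window 2 (chr5:71699682-71699931) also held 1 ACGTG. Among the Gabrb2 windows, window 3 was the one with both cores, window 2 held a TCGTG and window 1 no core. In window 3 of Gabrb2 ACGTG and TCGTG shared a base, so that both fell within CACGTCGTG, and the Gabra2 window held a TCGTG at 94 bases before the start. ACGTG stood in 3 of the 10 windows and TCGTG in 3 of the 10, while 16.6% and 13.3% of all 32851 mouse windows of this length hold them. TGACGTCA, found in 1.55% of all windows, and GCGTGGGCG, found in 0.536%, were in none of the 10. The windows with ACGTG came from Gabrb1 and Gabrb2 alone, and those with TCGTG from Gabra2 and Gabrb2. The windows of Gabra3, which overlap each other, and of Gabra5 held no core. A match of letters is a description and not a binding site.

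Gabra2 encodes the alpha2 subunit, found at synapses and at the axon initial segment, and known from mice as a target of the anxiety-reducing effect of benzodiazepines. Its level was 129, 124 and 129 CPM in AKR OFL and 118, 129 and 127 CPM in B6N OFL, against 152, 138, 147 and 148 CPM in AKR naive and 150.1, 133, 153 and 143 CPM in B6N naive. Every OFL library lay below every naive library, and the strains overlapped within each set.

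Gabra3 encodes the alpha3 subunit, which in cortex is common in deep layers. It was at 139.9, 138 and 144 CPM in AKR OFL and 124, 130.3 and 129 CPM in B6N OFL, against 203, 197, 196 and 194 CPM in AKR naive and 187, 172, 191 and 182 CPM in B6N naive. The AKR libraries were above all B6N libraries within each set, and all naive libraries were above all OFL libraries.

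Gabra4 encodes the alpha4 subunit, which pairs with delta in tonic receptors of the forebrain. It was at 138, 149.6 and 139 CPM in AKR OFL and 143, 153 and 155 CPM in B6N OFL, against 122, 119, 118 and 119 CPM in AKR naive and 106, 110.4, 105 and 111 CPM in B6N naive. In naive mice the AKR libraries were all above the B6N libraries. After OFL the strains overlapped.

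Gabra5 encodes the alpha5 subunit of tonic receptors, best known from hippocampal pyramidal neurons. Its level was 48.6, 47.9 and 51.0 CPM in AKR OFL and 52.3, 52.9 and 60.6 CPM in B6N OFL, against 40.0, 51.2, 51.5 and 50.6 CPM in AKR naive and 52.1, 45.8, 47.0 and 47.5 CPM in B6N naive. The strains did not overlap after OFL, where every B6N library was higher, and overlapped in naive mice, where AKR library 1 stood below the rest. Of its exonic bases, 148 lie under an exon of the gene Gm9962 on the other strand, and the strand setting of the counting is not given in the sources used here.

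Gabrb1 and Gabrb2 encode beta subunits, which form the GABA site with alpha and carry the contacts that hold receptors at the surface. Gabrb1 was at 267, 267 and 273 CPM in AKR OFL and 267, 292 and 303 CPM in B6N OFL, against 158, 152, 166 and 156 CPM in AKR naive and 179, 160.4, 182 and 169 CPM in B6N naive. Gabrb2 was at 320.5, 333 and 308 CPM in AKR OFL and 315, 314 and 328 CPM in B6N OFL, against 147, 141, 161 and 149 CPM in AKR naive and 139, 126, 134 and 132 CPM in B6N naive. For both genes the OFL libraries stood far above the naive libraries. In naive mice Gabrb2 was higher in all AKR libraries than in any B6N library, whereas for Gabrb1 the 2 strains overlapped.

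Gabrd encodes the delta subunit of tonic, extrasynaptic receptors, which are sensitive to neurosteroids. Its level was 49.3, 56.5 and 54.4 CPM in AKR OFL and 57.7, 51.6 and 54.4 CPM in B6N OFL, against 76.9, 78.4, 72.4 and 74.9 CPM in AKR naive and 63.0, 70.0, 62.8 and 67.9 CPM in B6N naive. All AKR naive libraries were above all B6N naive libraries, and every naive library was above every OFL library.

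**Figure D1:**
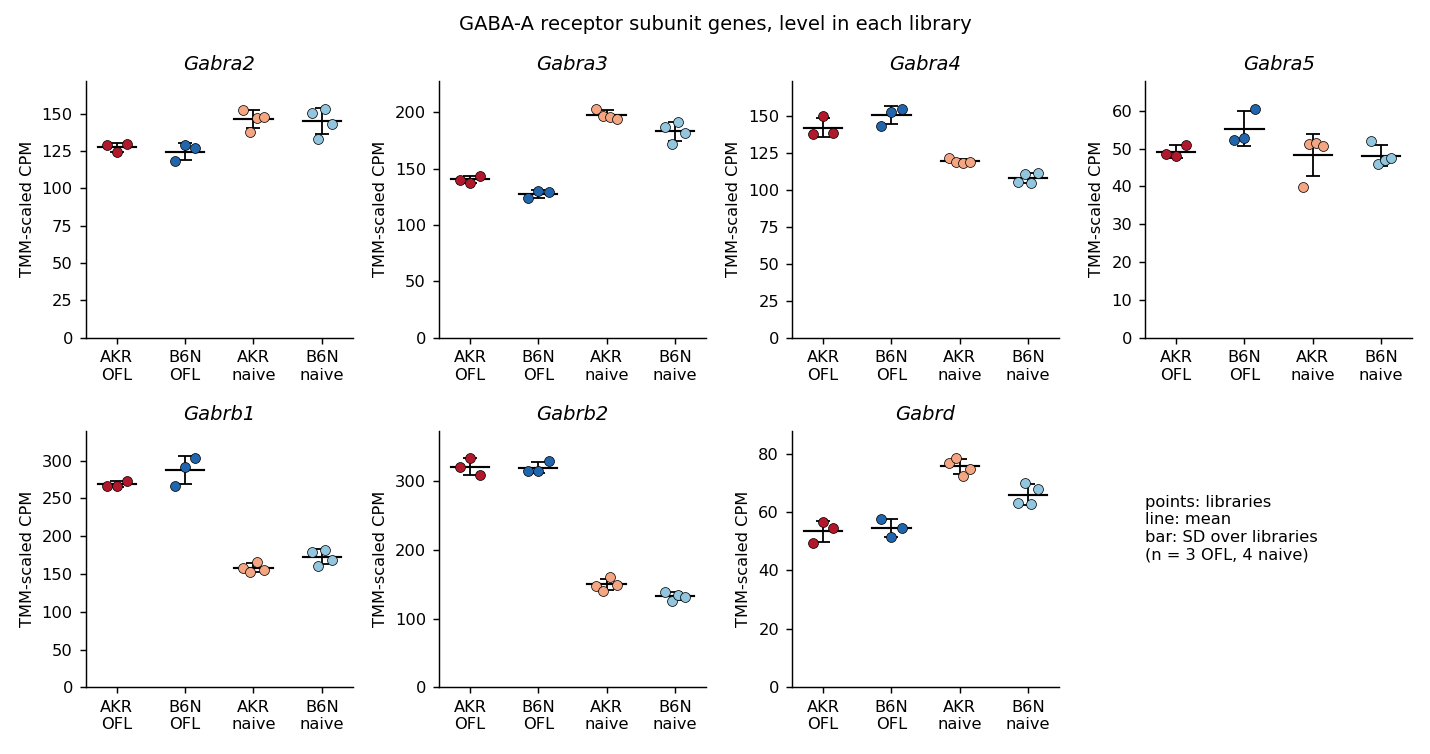
Level of each subunit gene (vertical axis, CPM) in AKR OFL, B6N OFL, AKR naive and B6N naive libraries (points, with mean line and SD bar over 3 OFL or 4 naive libraries). Gabrb1 and Gabrb2 stand higher in OFL than in naive libraries, with Gabrb2 at 308 to 333 CPM against 126 to 161 CPM, while Gabra2, Gabra3 and Gabrd stand lower.

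Per kilobase of exon, the order of the levels differed between the library sets. In AKR OFL, Gabrb2 was highest with 50.4 ± 1.94 CPM per kb (SD, n = 3), then came Gabra3 with 35.8 ± 0.788, Gabra4 with 23.4 ± 1.07, Gabrb1 with 19.4 ± 0.256, Gabrd with 18.6 ± 1.28, Gabra2 with 16.7 ± 0.378 and Gabra5 with 16.5 ± 0.546. In AKR naive, Gabra3 was highest with 50.4 ± 1.02 CPM per kb (SD, n = 4), then came Gabrd with 26.3 ± 0.907, Gabrb2 with 23.5 ± 1.35, Gabra4 with 19.6 ± 0.257, Gabra2 with 19.1 ± 0.786, Gabra5 with 16.2 ± 1.88 and Gabrb1 with 11.4 ± 0.432. Gabrb1 and Gabrd in AKR OFL, Gabra2 and Gabra5 in AKR OFL, and Gabra4 and Gabra2 in AKR naive were neighbours closer than their SDs. The same genes led in B6N, with Gabrb2 at 50.2 ± 1.24 CPM per kb in OFL libraries (SD, n = 3) and Gabra3 at 46.6 ± 2.098 in naive libraries (SD, n = 4). Places in the order depend on the length used: per kb of coding sequence Gabrb1 stood second in AKR naive, and per kb of the longest transcript it stood last.

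The strain comparison in naive mice asks how the receptor genes differ at baseline between AKR and B6N. Gabrd, Gabrb2, Gabra4 and Gabra3 were higher in AKR naive than in B6N naive, and Gabrb1 was lower. All 5 differences were small, from 8.10% to 14.9% higher and 8.38% lower. Of the 7 genes 5 were called at an adjusted p under 0.05 in edgeR's quasi-likelihood test, and 37.8% of all 17645 genes tested were called (18.3% higher, 19.5% lower), so being called was common in this comparison.

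Gabrd was 1.15-fold higher in AKR naive than in B6N naive, a log2 difference of 0.20 (SE 0.04, adjusted p = 0.00137). Gabrb2 differed by 0.17 on the log2 scale (SE 0.04, adjusted p = 0.00462), or 1.13-fold. Gabra4 differed by 0.15 (SE 0.03, adjusted p = 0.00239), or 1.11-fold. For these genes no AKR naive library overlapped a B6N naive library. Gabra3 was 1.08-fold higher, a log2 difference of 0.11 (SE 0.04, adjusted p = 0.0235), again with no overlap. Its call ended without AKR naive library 1 (adjusted p = 0.0545), B6N naive library 2 (0.0755) or B6N naive library 4 (0.0582), and the log2 difference stayed between 0.08 and 0.14 over all libraries left out in turn.

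Gabrb1, the head-to-head partner of Gabra4, ran the other way. It was lower in AKR naive than in B6N naive, with a log2 difference of -0.13 (SE 0.04, adjusted p = 0.0281), although the libraries overlapped. That call ended without AKR naive library 2 (adjusted p = 0.0824), AKR naive library 4 (0.0723), B6N naive library 1 (0.0956) or B6N naive library 3 (0.109). The 46 exonic bases that Gabra4 and Gabrb1 share are 0.756% and 0.332% of their exon lengths.

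Gabra2 and Gabra5 were not called between naive strains. The log2 difference of Gabra2 was 0.01 with a 95% interval of -0.08 to 0.11, and that of Gabra5 was 0.01 with an interval of -0.14 to 0.15. In 4 of the 7 genes the naive strains did not overlap, against 34.7% of all genes tested. The median log2 difference of the 7 was 0.11 and that of all genes tested was 0.01. Beside these values, the summed level of 5 dentate granule cell markers was 135 to 143 CPM in AKR naive and 176 to 194 CPM in B6N naive. The sum lay mainly in Pdzd2, which averaged 117 ± 2.87 CPM in AKR naive and 162 ± 10.9 CPM in B6N naive (SD, n = 4 each). The list did not differ as a group: Dsp and C1ql2 were called higher in AKR naive, Pdzd2 lower, and Prox1 and Tdo2 not. The part of such marker differences in the subunit values was not tested.

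The strain comparison after OFL asks whether the receptor genes differ between the strains once the mice have been conditioned. Of the 7 genes 0 were called by edgeR's quasi-likelihood test, where 16.4% of 17994 genes tested were called, and DESeq2 also called 0. Gabra3, Gabra5 and Gabrb1 had an unadjusted p under 0.05 in edgeR's test. The share of all genes at that looser cut was not counted, so the number of such members says nothing particular. Gabra3 was again higher in AKR OFL than in B6N OFL, by 0.13 on the log2 scale (SE 0.05, adjusted p = 0.0719), which is close to its naive difference of 0.11. In a fit of all 14 libraries the value was 0.14 and its adjusted p 0.0374.

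Gabra5 had a log2 difference of -0.18 after OFL (SE 0.07, adjusted p = 0.0809) and Gabrb1 one of -0.10 (SE 0.05, adjusted p = 0.17). Without B6N OFL library 1 both were called, Gabra5 at -0.22 (adjusted p = 0.0294) and Gabrb1 at -0.16 (adjusted p = 0.0109). Gabra4, Gabrb2 and Gabrd, which were higher in AKR naive than in B6N naive, had log2 differences of -0.09, -0.00 and -0.04 after OFL, with 95% intervals of -0.20 to 0.02, -0.09 to 0.09 and -0.18 to 0.10. Gabra2 stood at 0.02 with an interval of -0.08 to 0.13. The 2 genes whose strains did not overlap after OFL were Gabra3 and Gabra5, against 31.2% of all genes tested. The median log2 difference of the 7 genes was -0.04, and that of all genes tested 0.002.

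**Figure D2:**
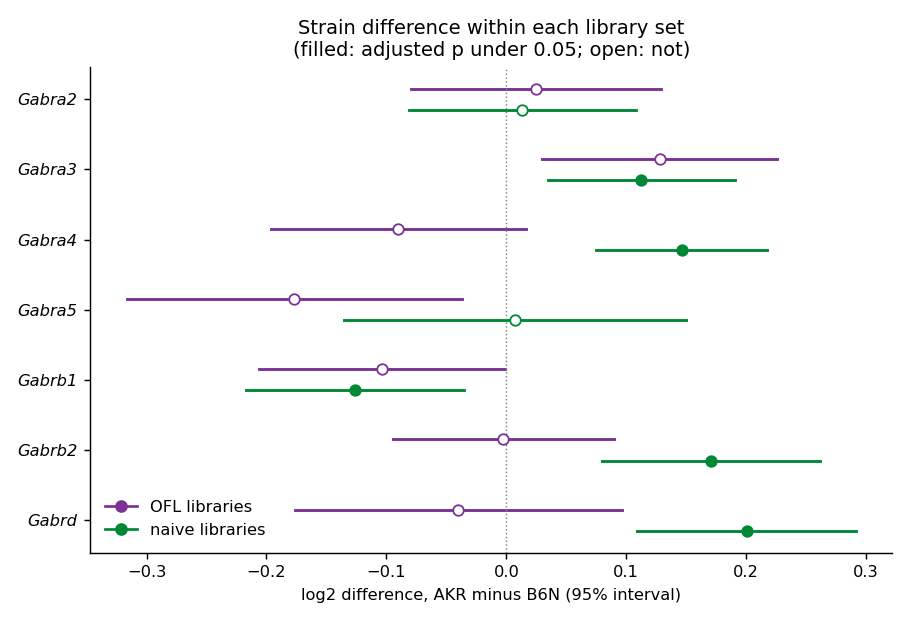
Log2 difference AKR minus B6N (horizontal axis) of each subunit gene in OFL and in naive libraries, with 95% intervals; filled points have an adjusted p under 0.05. Gabra3 sits at 0.13 and 0.11, while Gabrd sits at -0.04 in OFL libraries and 0.20 in naive libraries.

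The comparison of OFL with naive libraries asks what changed in each strain with conditioning, and it spans the split into library sets. In both strains Gabrb2, Gabrb1 and Gabra4 were higher in OFL libraries, and Gabra3, Gabrd and Gabra2 were lower. Of the 7 genes 6 were called in AKR (3 higher, 3 lower), where 78.7% of 20291 genes tested were called, 39.8% higher and 38.8% lower. In B6N 7 were called (4 higher, 3 lower), where 78.4% were called, 40.0% higher and 38.4% lower. The OFL and naive libraries did not overlap in 6 of the 7 genes in AKR, against 76.7% of all genes tested, and in 7 in B6N, against 76.7% again. Against that background a call says little, and the sizes and signs below are the description. The 2 comparisons use separate libraries of each strain.

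Gabrb2 had the largest difference, 1.10 on the log2 scale in AKR (SE 0.04, adjusted p = 4.14e-18) and 1.26 in B6N (SE 0.04, adjusted p = 2.29e-19), or 2.14-fold and 2.40-fold. By comparison, 29.3% of all genes tested in AKR and 25.1% in B6N differed by as much. Gabrb1 was 1.70-fold higher in AKR OFL than in AKR naive (log2 difference 0.77, SE 0.05, adjusted p = 3.66e-14) and 1.66-fold higher in B6N OFL than in B6N naive (0.73, SE 0.05, adjusted p = 7.51e-14). Gabra4 was higher by 0.25 in AKR (SE 0.04, adjusted p = 5.19e-06) and by 0.48 in B6N (SE 0.04, adjusted p = 5.36e-11). Differences at least as large as that of Gabrb1 were found in 41.5% of all genes tested in AKR and 43.1% in B6N. For Gabra4 these shares were 77.8% and 59.3%. Thus Gabra4 and Gabrb1, which differed between naive strains in opposite directions, both stood higher in the OFL libraries of both strains.

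Gabra3 had a log2 difference of -0.49 in AKR (SE 0.04, adjusted p = 2.32e-11) and -0.52 in B6N (SE 0.04, adjusted p = 8.95e-12). Gabrd differed by -0.50 in AKR (SE 0.06, adjusted p = 5.36e-09) and by -0.27 in B6N (SE 0.06, adjusted p = 7.55e-05). Gabra2 differed by -0.20 in AKR (SE 0.05, adjusted p = 0.000599) and -0.22 in B6N (SE 0.05, adjusted p = 0.000201). With protein-coding genes of the autosomes and X alone in the fit, Gabra2 was no longer called, at -0.08 in AKR (adjusted p = 0.145) and -0.10 in B6N (adjusted p = 0.0673). Gabra5 was called higher in B6N, at 0.20 (SE 0.07, adjusted p = 0.0136), and not in AKR, at 0.02 (SE 0.07, adjusted p = 0.765). The B6N call of Gabra5 ended without B6N OFL library 3, at 0.13 (adjusted p = 0.142).

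Several tissue and RNA measures moved with the same split. Malat1, a nuclear RNA, took 0.802% to 0.832% of counts in AKR OFL and 0.773% to 0.833% in B6N OFL, against 0.0921% to 0.107% in AKR naive and 0.0895% to 0.103% in B6N naive. Mitochondrial transcripts took 0.752% to 0.785% and 0.775% to 0.850% in the same OFL groups, against 1.56% to 1.90% and 1.62% to 1.78% in the naive groups. The summed level of 6 inhibitory neuron markers was 827 to 867 CPM in AKR OFL and 775 to 803 CPM in B6N OFL, against 1128 to 1212 CPM in AKR naive and 1100 to 1176 CPM in B6N naive. The summed level of 6 thalamic relay neuron markers was 208 to 239 CPM in AKR OFL and 226 to 246 CPM in B6N OFL, against 121 to 136 CPM in AKR naive and 123 to 149 CPM in B6N naive. The higher thalamic sum lay mainly in Rora, which averaged 183 ± 12.9 CPM in AKR OFL and 189 ± 6.74 CPM in B6N OFL (SD, n = 3 each), against 76.0 ± 5.99 CPM in AKR naive and 76.6 ± 8.50 CPM in B6N naive (SD, n = 4 each). The list did not move as a group: in each strain Rora and Lef1 were called higher, Prkcd and Calb2 lower, and Tcf7l2 and Slc17a6 not, and the median of the list was 0.04 on the log2 scale in AKR and 0.05 in B6N. Of the inhibitory neuron markers 5 of 6 were called lower in each strain and Dlx6os1 higher. Of all genes tested, 38.8% were called lower in AKR and 38.4% in B6N. Lower markers were not particular to inhibitory neurons: of the 6 excitatory neuron markers, 5 were called lower in AKR and 6 in B6N. Nor were they particular to neurons. Of 6 microglia markers, 5 were called lower and 1 higher in AKR, and 4 lower and 1 higher in B6N. Of 5 endothelium markers, 3 were called lower and 0 higher in AKR, and 4 lower and 1 higher in B6N. No marker of these lists was at 0, and their part in the subunit values was not tested. In such bulk samples fewer cells of a type, less RNA per cell and a difference between the library sets cannot be told apart.

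Longer genes were higher in OFL than in naive libraries, and most of the subunit genes are long. Over 14938 protein-coding genes, the log2 difference rose with gene span, with a Spearman rho of 0.414 in AKR and 0.394 in B6N across genes, which are not independent and share their libraries. With these genes cut into 5 bins of equal size by span, 6 of the 7 subunit genes fell in the bin of the longest, whose median was 0.33 in AKR and 0.31 in B6N, while Gabrd fell in bin 2, whose median was -0.40 in both strains. Gabrb2 stood above the middle 50% of its bin in both strains, and Gabra2 and Gabra3 stood below it in both. Gabra4 and Gabra5 stood within the middle 50%, Gabrb1 just above its upper edge in AKR and within it in B6N, and Gabrd within that of its own bin. These places depend on the length used. With exon length in place of span, rho was 0.415 in AKR and 0.387 in B6N. In bins by exon length Gabra2, Gabra3, Gabrb1 and Gabrd stood within the middle 50% in both strains, and Gabrb2 above it. Gabra5 then stood above it in both strains, narrowly in AKR, and Gabra4 in B6N alone.

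**Figure D3:**
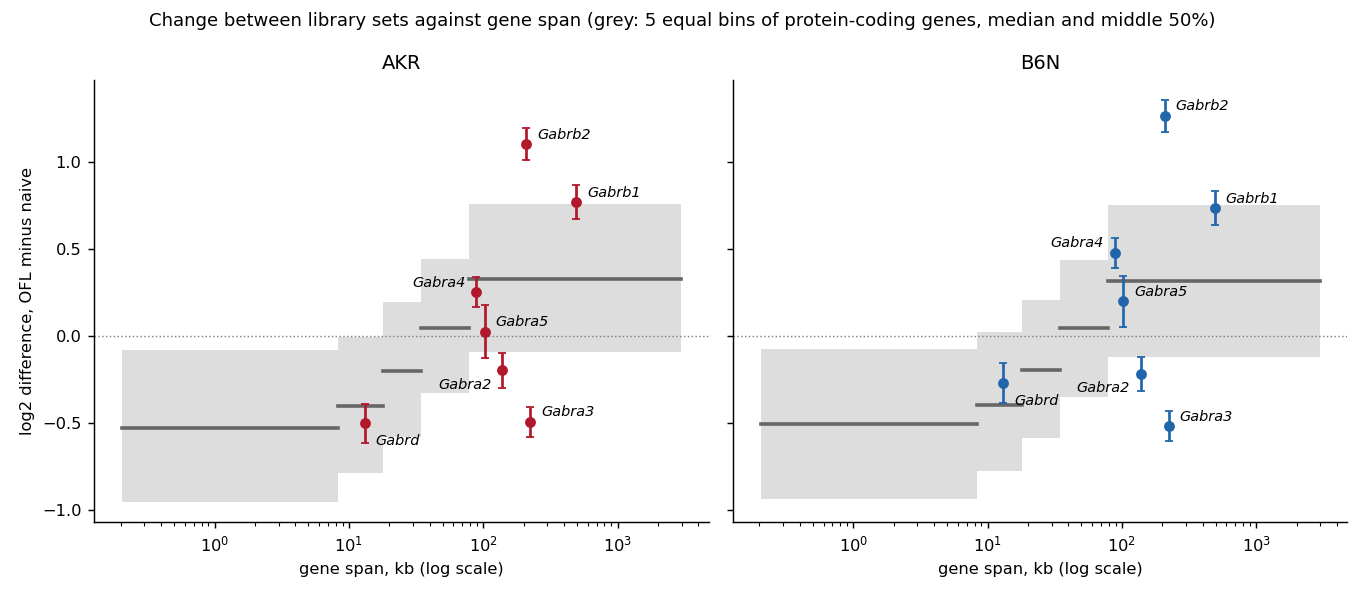
Log2 difference OFL minus naive (vertical axis) against gene span in kb (horizontal log axis) for the 7 genes in AKR and B6N, with 95% intervals, over grey bins of protein-coding genes by span (line, median; box, middle 50%). Gabrb2 stands at 1.10 and 1.26, above the box of the longest genes, and Gabra3 at -0.49 and -0.52, below it.

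The interaction asks whether the OFL minus naive difference was unequal in the 2 strains. Gabra4 was the 1 gene of 7 called, where 5.15% of 20291 genes tested were called and 1.54% were called lower. Its difference was smaller in AKR than in B6N, with a value of -0.23 on the log2 scale (SE 0.06, adjusted p = 0.0218). Its adjusted p ran from 0.00876 to 0.0814 over the 14 fits that left out a library and was under 0.05 in 8 of them. The call ended without B6N naive library 1 or 3, AKR OFL library 1 or 3, or B6N OFL library 2 or 3. In the naive libraries AKR was called higher, while in the OFL libraries the strains overlapped and no strain order was established (-0.09, 95% interval -0.20 to 0.02).

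Gabrd had an interaction of the same size, -0.23 (SE 0.08), with an adjusted p of 0.0922, and was called without B6N naive library 2, at -0.26 (adjusted p = 0.0443). Gabrb2 had -0.16 (SE 0.06, adjusted p = 0.153) and Gabra5 -0.17 (SE 0.10, adjusted p = 0.409). Gabra2, Gabra3 and Gabrb1 stood at 0.02, 0.03 and 0.03, with 95% intervals of -0.12 to 0.16, -0.09 to 0.14 and -0.10 to 0.17.

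Gabrg3, a gamma subunit gene of the chromosome 7 cluster that holds Gabra5, was lower in AKR OFL than in B6N OFL (log2 difference -0.22, SE 0.06, adjusted p = 0.0131). It was higher in OFL than in naive libraries, by 0.91 in AKR (SE 0.05, adjusted p = 1.98e-14) and 1.01 in B6N (SE 0.05, adjusted p = 1.12e-15), whereas its neighbour Gabra5 stood at 0.02 and 0.20. Gabrr2, a rho subunit gene known from retina, was lower in AKR naive than in B6N naive (-1.11, SE 0.31, adjusted p = 0.00923), with 5 to 12 reads a library in AKR naive and 14 to 21 in B6N naive. In B6N it was lower in OFL than in naive libraries (-0.85, SE 0.36, adjusted p = 0.0338), with only 5 to 8 reads a library in B6N OFL. Gabrr2 did not pass the expression filter between OFL strains and was not tested there. Neither Gabrg3 nor Gabrr2 was called in the interaction, where Gabrg3 had -0.10 with a 95% interval of -0.26 to 0.06.

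Genes that anchor, traffic or modulate the receptors moved mostly down between OFL and naive libraries. Of the 16 listed, 2 were higher and 12 lower in AKR, and 3 were higher and 11 lower in B6N. The higher ones were Gphn (0.44 in AKR and 0.40 in B6N) and Plcl1 (0.68 and 0.37), with Rdx (0.14) in B6N alone. Of all genes tested, 38.8% were called lower in AKR and 38.4% in B6N. Shisa7, an auxiliary subunit that speeds receptor kinetics, differed by -1.49 in AKR (SE 0.06, adjusted p = 1.31e-17) and -1.92 in B6N (SE 0.06, adjusted p = 5.34e-20). Nlgn2, the adhesion molecule neuroligin 2 of inhibitory synapses, differed by -1.09 and -1.21. Lhfpl4, which brings receptors to inhibitory synapses, differed by -0.84 and -0.87. Hap1, which helps recycle receptors to the surface, differed by -0.997 and -1.02. The median of the list was -0.27 in AKR and -0.33 in B6N, against -0.007 and -0.002 for all genes tested. These all-gene values are not matched for gene length, with which the differences also moved. The part of gene length in the values of the list was not tested.

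Between strains, 5 of the 16 were called in naive mice, where 37.8% of all genes tested were called, with Nlgn2 (log2 difference 0.18), Plcl1 (0.18) and Slitrk3 (0.15) higher and Shisa7 (-0.49) and 1 other lower in AKR naive than in B6N naive. After OFL 3 were called, all higher in AKR, where 16.4% of all genes tested were called: Plcl1 (0.49), Slitrk3 (0.27) and Nlgn2 (0.29). Both counts are near those backgrounds and say nothing particular about the list. In the interaction, where 5.15% of all genes tested were called, 3 were called, Shisa7 (0.43), Plcl1 (0.31) and Iqsec3 (0.23).

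Among 6 GABA-B receptor genes, the auxiliary subunits Kctd16 and Kctd12 were higher in OFL libraries, by 2.16 and 1.52 on the log2 scale in AKR and 1.86 and 1.51 in B6N, while Gabbr1 differed by -0.26 and -0.27. In each strain 2 of the 6 were called higher and 2 lower, where 78.7% of all genes tested were called in AKR and 78.4% in B6N. Between naive strains 1 was called, where 37.8% of all genes tested were: Kctd16, lower in AKR (-0.28, SE 0.07, adjusted p = 0.00521). Between OFL strains edgeR called 0, where 16.4% of all genes tested were called, with 0 at an unadjusted p under 0.05. None of these counts stands above its background. Of the chloride transporters that set the driving force of the receptors, Slc12a2 (NKCC1) was higher in OFL libraries, by 0.59 in AKR and 0.74 in B6N, and Slc12a5 (KCC2) was lower, by -0.39 and -0.48. Neither transporter was called between strains in either set, and 1, Slc12a5, had an unadjusted p under 0.05 after OFL (log2 difference 0.10, adjusted p = 0.0894).

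Across all 14 libraries, the member pair with the most alike pattern was Gabra3 and Gabrd, with a root mean square difference of 0.127 in centred log2 CPM, and the pair least alike was Gabra3 and Gabrb2 with 0.839. The genes nearest to each member were sought among the 20291 genes tested, of which 5538 were passed over by name or as pseudogenes. They were Wac, Ppm1f and Pik3ip1 for Gabra2 (the nearest at 0.0461), and Eef2, Ccdc157 and Ufd1 for Gabra3 (0.0473). Those of Gabra4 were Ddx3x, Wdr48 and Tmx4 (0.0449), and those of Gabra5 included Xpot and Wdr1 (0.0794). For Gabrb1 they were Aff4, Srr and Rasa1 (0.0399), for Gabrb2 Zkscan1, Ranbp17 and Scaper (0.0510), and for Gabrd Hdac3, Hnrnpdl and Gcsh (0.0623). These patterns are dominated by the split between OFL and naive libraries.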

How the data were processed

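RNA of anterior cingulate cortex was sequenced from 14 samples. Per the labels, RNA was extracted with Trizol and libraries were made with a TruSeq kit. Per the submitters' processing notes, CASAVA, cutadapt 2.7, TopHat2 2.1.1, HTSeq and edgeR were used with build GRCm38; the annotation release and strand setting are not given in the sources used here. The authors deposited raw counts per Ensembl gene in 2 tables, 1 per condition, which were the input. GENCODE M21 named 53360 of 53465 identifiers.

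Counts were tested with edgeR 4.0.16 (R 4.3.3): expression filter by group, TMM scaling, quasi-likelihood F-test, two-sided, Benjamini-Hochberg adjustment over all genes tested, called under 0.05. Strain differences were fitted within each condition, and the OFL minus naive differences and their interaction over all 14 libraries. CPM are TMM-scaled, and SE is the standard error from the fit. edgeR's biological coefficient of variation came to 0.0446 for naive and 0.0456 for OFL libraries. Nearest patterns used log2 CPM with a prior count of 2 and passed over genes with only a predicted-gene, clone or pseudogene name.

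The 7 members were always named; of the other subunits, those called; of each further list, up to 4 called genes of the smallest p. Some subunit genes, neighbours and the shares of subunits within a class are not reported here. Lists and members were chosen with earlier results of these data known. The naming of Gabra2 beside the sequences, of Malat1, and of the anchoring genes higher in OFL libraries was chosen after values were seen. The tests recovered known large changes in simulated data, planted in a small part of the genes, all with good counts. Those changes were larger than the strain differences of the 7 genes. The simulation therefore says nothing on differences that small, or on scaling where most genes differ. Alternatives were other scalings, filters, gene sets and tools (DESeq2 1.42.0), and leaving out each library.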

Additional observations from a re-analysis of the deposited data

Results flagged for a closer look

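Gabra5 stood at 40.0 CPM in AKR naive library 1, far below the other AKR naive libraries, which ran from 50.6 to 51.5 CPM. Its gap to the nearest library was 0.92 of the range of the group, above the limit of 0.829 for 4 libraries. Highest and lowest libraries were checked in 14 sets of a gene and a naive group, and chance alone marks about 1 set in 20. Without this library the log2 difference of Gabra5 was 0.09 between naive strains (adjusted p = 0.185) and -0.05 between OFL and naive libraries in AKR (adjusted p = 0.418).

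The OFL minus naive difference of Gabra4 was unequal in the strains, with the difference in AKR minus that in B6N at -0.23 on the log2 scale (edgeR, adjusted p = 0.0218). The difference was positive in both strains, 0.25 in AKR and 0.48 in B6N.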

How the results depend on the processing

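Outside the fits that left out a library, 273 of 279 values of single genes kept their direction and side of the threshold. With protein-coding genes alone, the calls of Gabra2 between OFL and naive libraries were lost, as given above. Gabra3 was called between OFL strains in the fit of all 14 libraries, which made 1 call of 7 there in place of 0. Gabrb2 between OFL strains turned to 0.0051 with upper-quartile scaling and 0.0062 in the fit of all 14 libraries, and Gabra5 in AKR OFL minus naive to -0.0048 with no filter. Leaving out genes under an exon of the other strand removed Gabra4, Gabra5 and Gabrb1 and left a smaller set of genes to test. Of the 4 members left, 3 were called between naive strains, 4 in B6N OFL minus naive and 0 in the interaction. Of all genes, 4618, 11423 and 695 were called in these comparisons, against 6668, 15916 and 1044 in the main fits. Since the gene sets differ in size, the lower counts do not by themselves show lost calls.

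Leaving out 1 library at a time gave 4 to 5 calls of 7 between naive strains, 0 to 2 between OFL strains, 6 to 6 in AKR and 6 to 7 in B6N for OFL minus naive, and 0 to 2 in the interaction. All genes called between OFL strains ran from 1934 (without B6N OFL library 2) to 3514. Signs turned in values near 0: Gabra2 between naive strains (-0.027 to 0.043), between OFL strains (-0.017 to 0.047) and in the interaction (-0.017 to 0.061), Gabra5 between naive strains (-0.023 to 0.086) and in AKR OFL minus naive (-0.054 to 0.055), Gabrb1 in the interaction (-0.019 to 0.072), and Gabrb2 (-0.033 to 0.024) and Gabrd (-0.085 to 0.014) between OFL strains.

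Replicate numbers did not pair the samples: deviations of same-numbered libraries correlated at -0.0426 to 0.0439. With the replicate block 5, 0, 6, 7 and 1 of the 7 genes were called in the 5 comparisons, as without it, and 6229, 3021, 15766, 15722 and 1013 of all genes.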
